A study of Mus musculus with 48 samples.

Results

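The transcripts of cortical astrocytes were compared between 3 libraries of mice labelled Gq-CNO and 3 libraries of mice labelled Gq-Saline, which make up 6 of the 48 libraries of the study. They were chosen as the libraries whose labels give cortex and GFP astrocytes with either treatment. All 6 share the genotype Aldh1l1-GFP, in which the promoter of the astrocyte gene Aldh1l1, for an enzyme of folate metabolism, drives a green fluorescent protein (GFP), and the cells were purified by sorting. The Gq-CNO group received clozapine-N-oxide (CNO), which activates an engineered receptor coupled to the G protein Gq, and the Gq-Saline group received saline. The labels used here do not give the cells that carry the receptor, the dose or the time between injection and sorting. They give neither the age nor the sex, nor whether each library is a separate animal. The p-values thus rest on the spread among these libraries, which may in part be technical. The libraries were made from 10 ng of total RNA. In the deposited table the libraries of each group are numbered 1, 2 and 4, and values below follow that order.

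Gq-coupled receptors activate phospholipase C, which makes IP3 and releases calcium from stores inside the cell. In astrocytes this rise in calcium is a main route by which noradrenaline, acetylcholine and designer receptors act. Calcium and the kinase ERK switch on immediate early genes such as Fos and Egr1, which then serve as a readout of recent activation, while Sprouty, Spred and Dusp genes feed back on ERK. The study as a whole is about Slc22a3, a transporter of monoamines in the plasma membrane.

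No gene passed the test for a difference between Gq-CNO and Gq-Saline cortical astrocytes. Of 9978 tested genes, 0 passed an adjusted p of 0.05 (limma with Benjamini-Hochberg adjustment, 0% of genes tested), and the smallest adjusted p was 0.91. At an unadjusted p under 0.05 there were 142 genes (1.42%), 41 higher (0.411%) and 101 lower (1.01%) with CNO. On the recovered reads edgeR also called 0 genes, with 256 at an unadjusted p under 0.05 (2.57%), and DESeq2 called 0, with 391 (3.92%). The levels of the groups did not overlap in 887 genes (8.89%), 445 of them higher (4.46%) and 442 lower (4.43%) with CNO. With no filter on low values DESeq2 called 16 of 15137 genes (0.106%), all lower with CNO: 12 of them had reads in Gq-Saline library 4 and in no other library, and the other 4 were Rai14, Klhl15, Fam57a and Tmem86a. The median log2 difference over all tested genes was 0.05, and 52.2% of genes lay above 0.

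The libraries differed in depth and in likeness far more than the groups did. Depth was 5535214, 16367874 and 325129 reads in genes in the Gq-CNO libraries and 8602391, 8726595 and 2941875 in the Gq-Saline libraries. In Gq-CNO library 4 a single read was therefore worth 14.4 normalised reads, against 0.237 to 1.51 in the other libraries, so its low values move in coarse steps. Gq-CNO library 4 was at 0 for 1453 of the tested genes and Gq-Saline library 4 for 1952, whereas the other libraries were at 0 for 17 to 122. Gq-Saline library 4 was the highest of the 6 libraries in 30.8% of tested genes and the lowest in 38.6%. Its rank correlation across genes with the other libraries was 0.564 to 0.608, while the other libraries correlated with each other at 0.766 to 0.903.

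**Figure D1:**
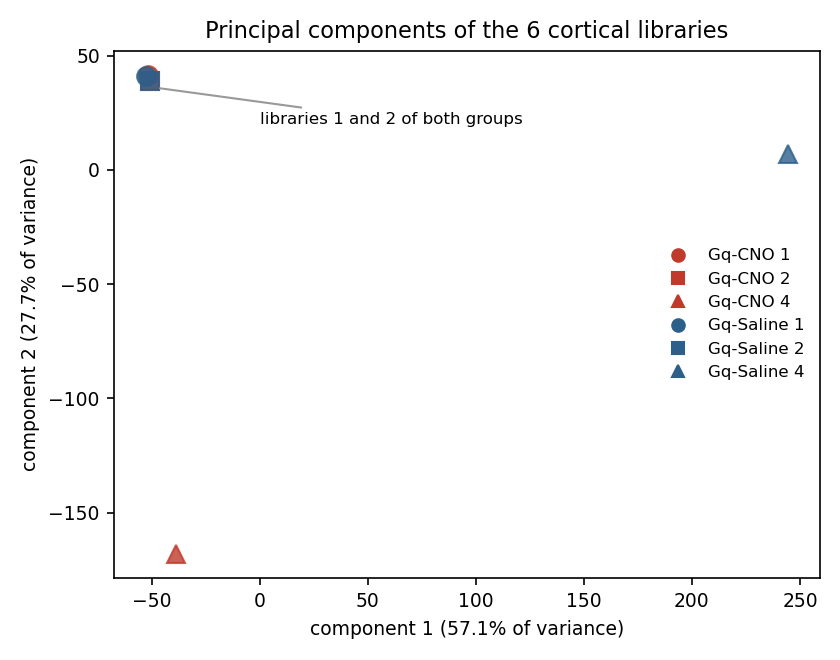
Each point is 1 library, placed by its scores on the first and second principal components of log2(normalised reads + 1) over the tested genes, with Gq-CNO in red and Gq-Saline in blue. Component 1 (57.1% of the variance) sets Gq-Saline 4 apart, component 2 (27.7%) sets Gq-CNO 4 apart, and libraries 1 and 2 of both groups lie on top of each other.

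The label of cortical astrocytes fitted the marker genes in every library, and Gq-Saline library 4 had the highest summed markers of microglia, oligodendrocytes and neurons. The summed level of 16 astrocyte markers, among them the glutamate transporter Slc1a2, the water channel Aqp4 and glutamine synthetase Glul, was 127422, 114649 and 136810 reads per 1000000 reads (RPM) in the Gq-CNO libraries, against 108252, 118449 and 84930 RPM in the Gq-Saline libraries. In the cortical sort labelled mCh neurons it averaged 8365 RPM. Gq-Saline library 4 had the lowest sum of the 6, and it was the lowest for 10 of the 16 astrocyte markers singly. By the median marker it was not the lowest, with 698, 724 and 704 RPM in the Gq-CNO libraries and 741, 748 and 728 RPM in the Gq-Saline libraries. Markers of cortex and the rest of the telencephalon were present, with a summed level of 903, 1133 and 809 RPM in Gq-CNO libraries and 864, 913 and 575 RPM in Gq-Saline libraries. Markers of midbrain, hindbrain and spinal cord summed to at most 3.08 RPM, those of blood to at most 1.39 RPM, and all 5 lymphocyte markers in the table were at 0 in every library.

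By summed level, markers of microglia stood far above the other libraries in Gq-Saline library 4. The 15 microglia markers summed to 141, 135 and 399.8 RPM in the Gq-CNO libraries, against 92.6, 121 and 3159 RPM in the Gq-Saline libraries. The level in Gq-Saline library 4 was 7.90 times that of the next library, and the 13 markers that could be tested were all highest there. Csf1r, the receptor that keeps microglia alive, had 56.3, 62.8 and 403 normalised reads in Gq-CNO libraries and 127, 59.4 and 2365 in Gq-Saline libraries, and the fractalkine receptor Cx3cr1 had 19.8, 11.4 and 86.4 with CNO and 18.7, 46.8 and 1332 with saline. Gq-CNO library 4 stood second for both genes.

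Summed markers of myelin and neurons were also highest in Gq-Saline library 4, by smaller factors. The 10 markers of mature oligodendrocytes summed to 828, 1014 and 1067 RPM in Gq-CNO libraries and to 1532, 966 and 3418 RPM in Gq-Saline libraries. The 13 neuron markers summed to 1163, 1056 and 1240 RPM with CNO and to 831, 936 and 2223 RPM with saline. Mural markers reached 287 RPM in Gq-Saline library 4, against 30.8 to 83.7 RPM in the other libraries, and endothelial markers 103 RPM, against 13.9 to 33.2 RPM. These 2 directions turned with the median marker in place of the sum, which in Gq-Saline library 4 was 0.856 times that of the highest other library for mural and 0.593 times for endothelial markers. The medians in Gq-Saline library 4 were only 0.680 RPM for mural and 1.02 RPM for endothelial markers, so these ratios rest on very few reads. The summed markers of fibroblasts (143 RPM), border macrophages (6.80 RPM), neuroblasts (37.1 RPM) and ependymal cells (0 RPM) were not highest in Gq-Saline library 4. For fibroblasts this turned as well, since their median marker there was 2.10 times that of the highest other library. In RNA of sorted cells in bulk, fewer cells of a type and less RNA per cell cannot be told apart. These sums were highest in 1 library, and values without the libraries numbered 4 are given beside many, but not all, of the differences described next.

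**Figure D2:**
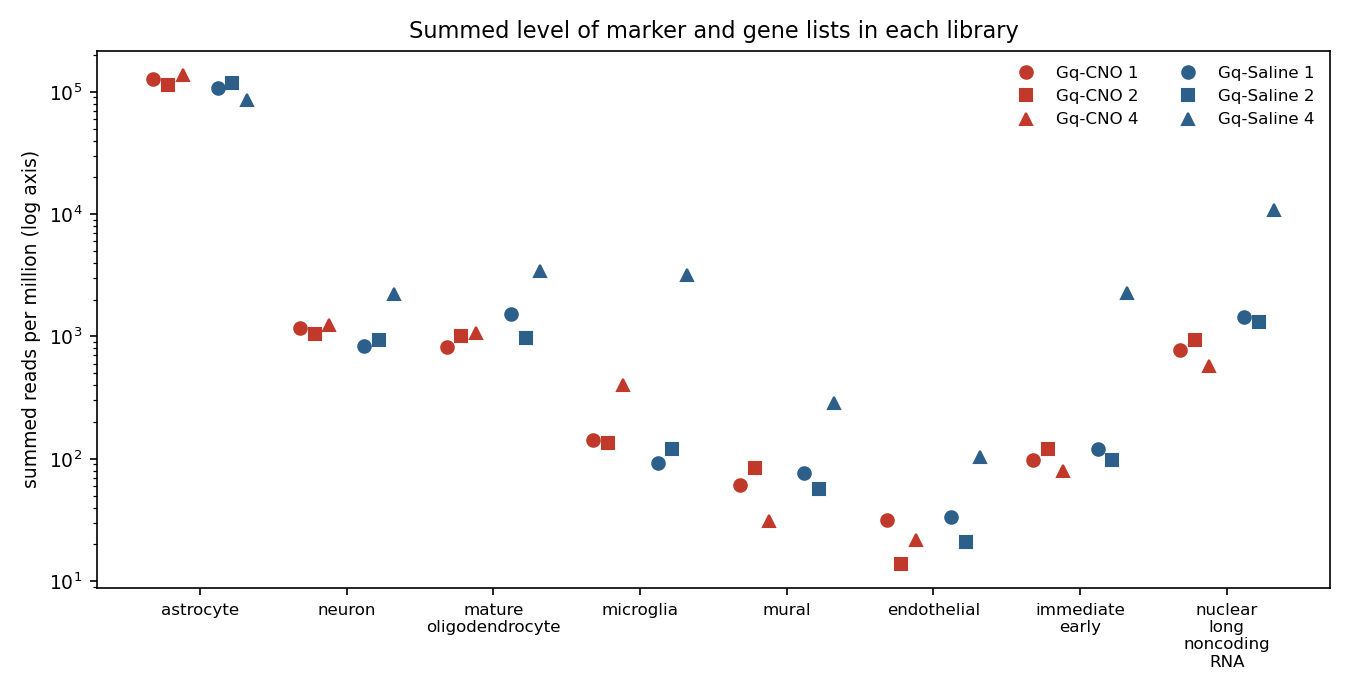
Each point is the summed level of a list of genes in 1 library, in RPM on a log axis, with Gq-CNO in red to the left of Gq-Saline in blue. Gq-Saline 4 (blue triangle) is highest for every list plotted but that of astrocytes, where it is lowest at 84930 RPM.

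In 4.46% of tested genes every Gq-CNO library lay above every Gq-Saline library, and a choice by small p favours such genes. Among the genes higher with CNO, the 10 with the smallest unadjusted p all lacked overlap and were spread over unlike functions. They were Fbxl17, Arih1, Aebp2, Angel2, Nxf1, Zfp266, Hopx, Vapa, Nup98 and Orc2, with log2 differences of 1.04 (Hopx) to 1.93 (Aebp2) and unadjusted p-values of 0.0133 (Fbxl17) to 0.029 (Orc2). Fbxl17, a subunit that selects substrates for a ubiquitin ligase, had 803, 596 and 1555 normalised reads in Gq-CNO libraries, against 359.6, 468 and 354 in Gq-Saline libraries. Its log2 difference was 1.21 ± 0.41 (SE, n = 3 libraries a group; limma adjusted p = 0.91), and without both libraries numbered 4 it was 0.75.

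Nxf1, the main receptor for messenger RNA export, had 215, 172 and 202 normalised reads in Gq-CNO libraries and 79.9, 62.2 and 48.3 in Gq-Saline libraries, a log2 difference of 1.64 ± 0.61 (SE), and 1.43 without both libraries numbered 4. Nup98, a protein of the pore itself, had 271, 178 and 273 with CNO and 63.4, 136 and 48.3 with saline. Both belong to the genes chosen by a small unadjusted p, and their groups did not overlap. The adjusted p of each was 0.91 by limma.

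All 10 genes were at their lowest in Gq-Saline library 4. Arih1, another ubiquitin ligase, had 549, 484 and 950.0 normalised reads in Gq-CNO libraries and 357, 331 and 112 in Gq-Saline libraries, and its log2 difference of 1.42 was 0.58 without both libraries numbered 4. Aebp2, a partner of the Polycomb repressive complex PRC2, had 379, 212 and 230.3 with CNO and 124, 100.1 and 25.6 with saline, a log2 difference of 1.93, and 1.34 without them. Hopx, a homeobox cofactor found in astrocytes and neural stem cells, had 774, 1011 and 1857 with CNO and 530.3, 738 and 422 with saline. For Hopx the lowest Gq-CNO value and the highest Gq-Saline value lay close together, and its difference without both libraries numbered 4 was 0.50.

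The 10 genes lower with CNO, Lrig1 among them, had a wider range of differences, and all 10 were highest in Gq-Saline library 4. Cpd, a carboxypeptidase that trims peptides in the secretory pathway, had 34.2, 67.5 and 86.4 normalised reads in Gq-CNO libraries, against 169.8, 240.4 and 629 in Gq-Saline libraries. Its log2 difference was -2.31 ± 0.70 (SE; limma unadjusted p = 0.00731, adjusted p = 0.91), and -2.05 without both libraries numbered 4. Cpd is on chr11:76778424-76847018 (mm10, minus strand).

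Cpt2, which completes the import of fatty acids into mitochondria, had 31.2, 65.1 and 86.4 normalised reads in Gq-CNO libraries and 169.8, 157 and 440.5 in Gq-Saline libraries. Akap13, an anchor for protein kinase A, had 76.1, 65.1 and 86.4 with CNO and 156, 271 and 878 with saline. In libraries 1 and 2 alone the log2 differences of Cpd, Cpt2 and Akap13 were -2.05, -1.83 and -1.53. Their groups did not overlap over all libraries, so those of libraries 1 and 2 could not overlap either. Pex2 of the peroxisome membrane had 37.3, 38.4 and 28.8 with CNO and 99.0, 132 and 845 with saline, and Mon2, a regulator of endosome to Golgi traffic, had 141, 195 and 86.4 with CNO and 298, 306 and 637 with saline.

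In 4 others of this group, Rai14, Klhl15, Stk10 and Gfpt2, Gq-CNO library 4 had no read, as in 14.6% of tested genes. In that library 1 read was worth 14.4 normalised reads. Rai14, an actin-binding protein, had 2.28, 3.79 and 0 normalised reads in Gq-CNO libraries and 37.4, 36.01 and 394 in Gq-Saline libraries. Klhl15, an adaptor of a ubiquitin ligase, had 3.04, 6.40 and 0 with CNO and 16.9, 81.85 and 545 with saline, and the kinase Stk10 had 2.28, 32.5 and 0 with CNO and 49.3, 84.7 and 421 with saline. The log2 differences were -5.04 for Rai14, -4.91 for Klhl15, -4.67 for Stk10 and -4.40 for Gfpt2, the first enzyme of hexosamine synthesis, and without both libraries numbered 4 they were -3.25, -2.82, -2.65 and -2.04. All had a limma adjusted p of 0.91. Rai14 and Klhl15 reached 10 normalised reads in the 3 Gq-Saline libraries only, so they passed the filter on low values (at least 10 in at least 3 libraries) through the group where they are high, and their lack of overlap was set by it.

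**Figure D3:**
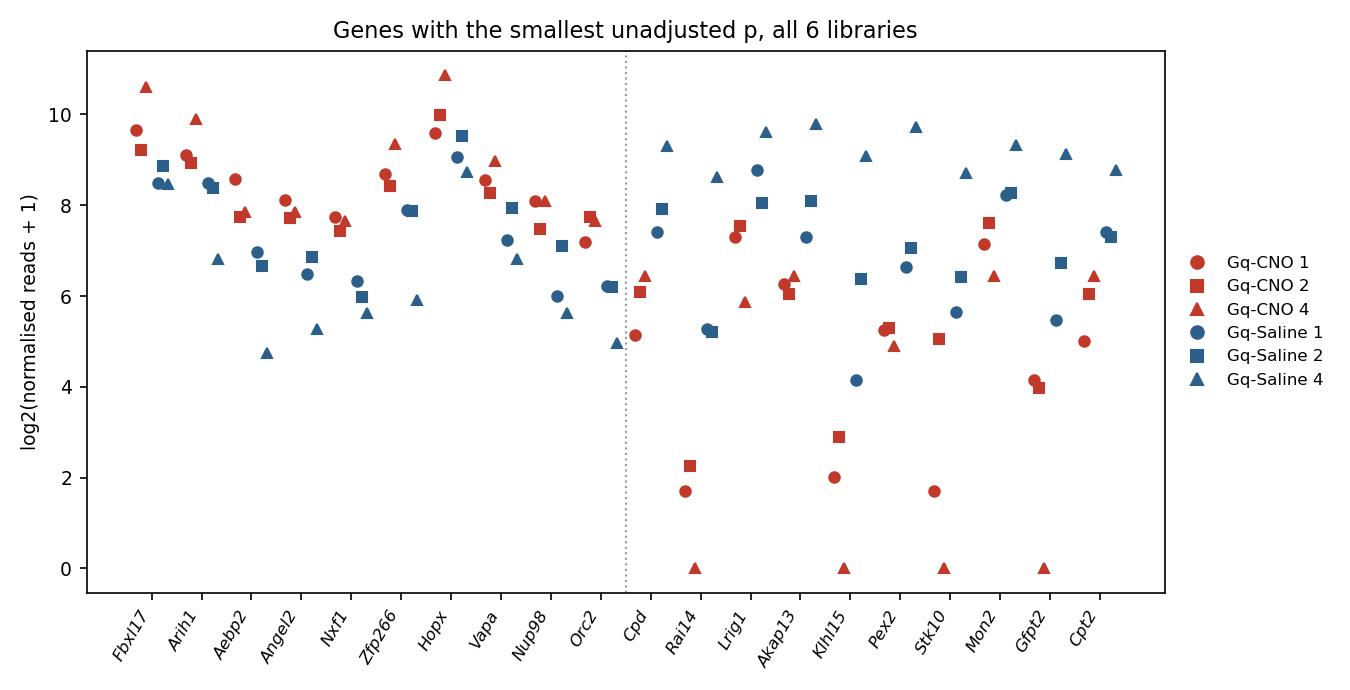
For each gene the points give log2(normalised reads + 1) in the 6 libraries, Gq-CNO in red to the left of Gq-Saline in blue, with the genes higher with CNO left of the dotted line and those lower with CNO right of it. The blue triangle (Gq-Saline 4) is the lowest point of every gene on the left and the highest of every gene on the right, and the red triangle (Gq-CNO 4) lies at 0 for Rai14, Klhl15, Stk10 and Gfpt2.

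Without both libraries numbered 4, limma still called 0 of 9978 genes (0%), with 415 at an unadjusted p under 0.05 (4.16%), 205 of them higher (2.05%) and 210 lower (2.1%). edgeR called 0 as well, with 402 at an unadjusted p under 0.05 (4.03%). DESeq2 called 3 genes (0.0301%), all higher with CNO, namely Gad2, Ints3 and Kcnh3. This choice of libraries was made after the data were seen, and each group then holds 2 libraries.

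Gad2, an enzyme that makes GABA in inhibitory neurons, had 71.5 and 83.9 normalised reads in Gq-CNO libraries 1 and 2, against 3.65 and 2.34 in Gq-Saline libraries 1 and 2. In the libraries numbered 4 it had 0 with CNO and 152 with saline, the opposite order. Its log2 difference without those libraries was 4.71 by DESeq2 (adjusted p = 0.00102) and 4.32 ± 1.08 (SE) by limma (adjusted p = 0.995), and it was 0.46 by limma with all 6. Gad1, the sister enzyme, had 1.52, 14.0 and 0 with CNO and 12.8, 2.34 and 66.4 with saline, with no common direction. The neuron markers as a whole summed to more in Gq-CNO libraries 1 and 2 (1163 and 1056 RPM) than in Gq-Saline libraries 1 and 2 (831 and 936 RPM), and whether Gad2 follows them was not tested.

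Kcnh3, a voltage-gated potassium channel of forebrain neurons, had 65.4, 67.5 and 14.4 normalised reads in Gq-CNO libraries and 2.74, 3.27 and 0 in Gq-Saline libraries. It passed the filter through the 3 Gq-CNO libraries alone, so its place above all Gq-Saline libraries was set by the filter, and its log2 difference was 4.03 ± 1.55 by limma over all 6 libraries (adjusted p = 0.91) and 4.48 by DESeq2 without those numbered 4 (adjusted p = 0.00459). The value of Gq-CNO library 4 was a single read. Ints3, a subunit of the Integrator complex that ends small nuclear RNA transcripts, had 598, 232 and 129.5 with CNO and 94.0, 75.77 and 87.5 with saline, a log2 difference of 2.29 by DESeq2 without the libraries numbered 4 (adjusted p = 0.00242) and 1.61 by limma with all 6. Kcnh3 is on chr15:99224861-99242817 (plus strand) and Ints3 on chr3:90391388-90433622 (minus strand, mm10), and Gad2 on chr2:22622205-22693874 (plus strand) overlaps another annotated gene, whose reads could not be told apart from its own.

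Other genes with a small unadjusted p in libraries 1 and 2 often took the opposite place in the libraries numbered 4. Klhl23 had 228, 182 and 14.4 normalised reads in Gq-CNO libraries and 61.2, 47.2 and 513 in Gq-Saline libraries, so its log2 difference was 1.90 without the libraries numbered 4 and -0.42 with them. Cml1 had 54.8, 91.2 and 331 with CNO and 250.1, 208 and 4.53 with saline, -1.67 without and 0.85 with them. Rarb, a retinoic acid receptor, had 155, 72.0 and 0 with CNO and 26.0, 7.95 and 0 with saline, and Adamtsl3, a matrix glycoprotein, had 85.2, 112 and 0 with CNO and 9.58, 17.8 and 0 with saline. Nploc4, a cofactor of the p97 segregase, and Hmgb3, a chromatin protein, were higher with CNO in libraries 1 and 2 by 1.58 and 2.01 on the log2 scale, and the highest Gq-Saline value of Hmgb3 (170.5, library 4) exceeded the values of Gq-CNO libraries 1 and 4 (104 and 86.4).

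Malat1 and Acyp2 kept their separation in all 6 libraries. Malat1, an abundant long noncoding RNA of the nucleus, had 3014, 3458 and 2548 normalised reads in Gq-CNO libraries, against 5416, 5192 and 45483 in Gq-Saline libraries. Its log2 difference was -1.86 ± 0.68 (SE; limma adjusted p = 0.91) over all 6 libraries and -0.72 ± 0.16 without both numbered 4, where libraries 1 and 2 of each group agreed closely. Malat1 and Acyp2 were chosen by a small p in libraries 1 and 2, which favours such agreement. Acyp2, a small phosphatase, had 131, 134 and 187 with CNO and 287, 391 and 353 with saline, a log2 difference of -1.19, and -1.33 without the libraries numbered 4. Sgce, a subunit of the sarcoglycan complex, did not, with 6.09, 49.7 and 101 with CNO and 277, 99.2 and 118 with saline, where Gq-CNO library 4 overlapped the Gq-Saline values.

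**Figure D4:**
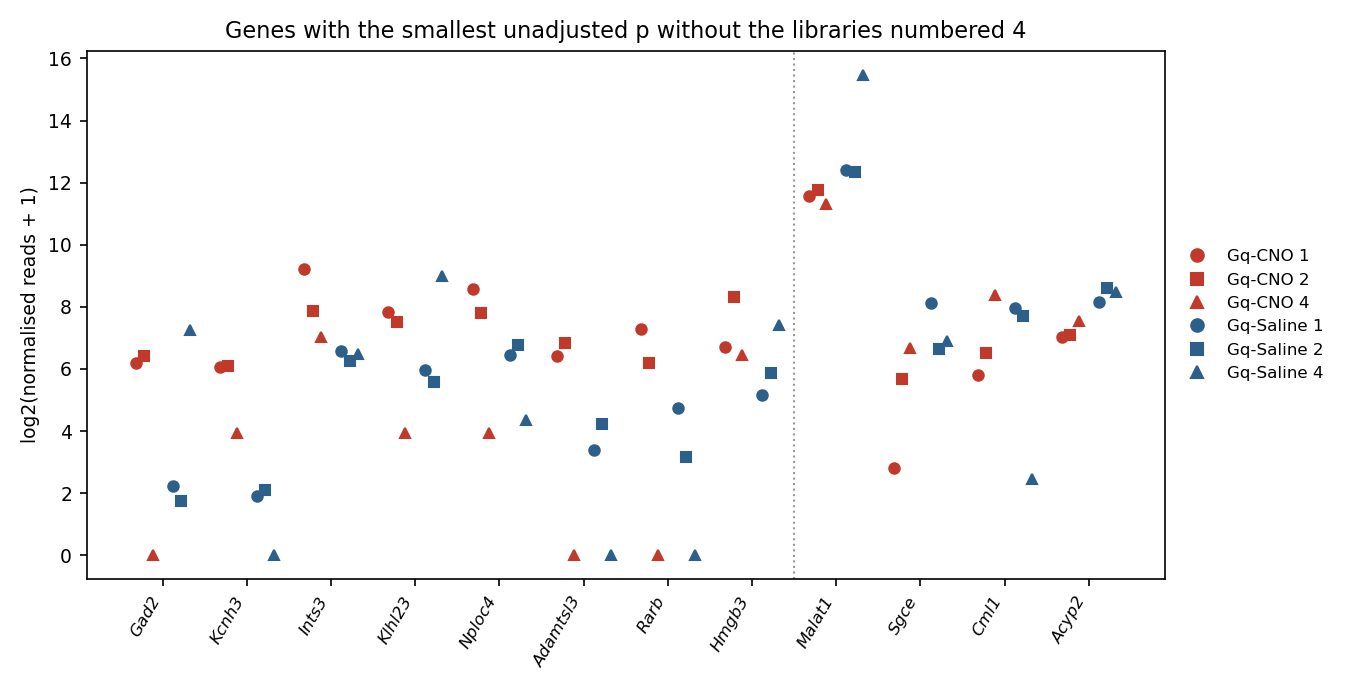
For each gene the points give log2(normalised reads + 1) in the 6 libraries, Gq-CNO in red to the left of Gq-Saline in blue, with the genes higher with CNO in libraries 1 and 2 left of the dotted line and those lower right of it. The genes were chosen by a small p in libraries 1 and 2, so the circles and squares (libraries 1 and 2) separate by that choice. The triangles (libraries numbered 4) take the opposite order in Gad2, Klhl23, Nploc4, Hmgb3 and Cml1.

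Immediate early genes, the readout of recent calcium and ERK signalling, had a low summed level in all libraries but Gq-Saline library 4. The 22 genes of the list summed to 97.9, 119.7 and 80.0 RPM in Gq-CNO libraries, against 121, 98.0 and 2260.1 RPM in Gq-Saline libraries. A list of 20 genes that respond to dissociation of tissue shares Fos, Egr1, Dusp1 and Btg2 with it. That list summed to 351, 334 and 495 RPM with CNO and to 289, 308 and 2099 RPM with saline. Whether the level in Gq-Saline library 4 came from signalling or from dissociation was not tested. Fos had 12.9, 30.3 and 72.0 normalised reads with CNO and 9.13, 8.42 and 451 with saline. With Gq-Saline library 4 its log2 difference was -0.15 ± 1.62 (SE; limma adjusted p = 0.992), and without both libraries numbered 4 it was 1.10 ± 1.19 (limma unadjusted p = 0.366), so the direction turned with that choice.

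Both libraries numbered 4 bore on the median of the list. Of 11 tested members 2 lay above 0 and 9 below, with a median log2 difference of -1.50, and 0 were called, against a median of 0.05 over all tested genes. Without both libraries numbered 4 there were 5 above and 6 below, with a median of -0.02, against -0.02 over all tested genes, and without Gq-Saline library 4 alone the median was -0.69. Egr1, a zinc finger factor, had 4.56, 106 and 0 normalised reads with CNO and 26.0, 19.18 and 2909.7 with saline, a log2 difference of -3.79 with all libraries and 0.065 without those numbered 4. Jun, the partner of Fos in the AP-1 factor, had 137, 103 and 0 with CNO and 118, 138 and 671 with saline, and its relative Jund had 13.7, 20.1 and 0 with CNO and 42.4, 24.3 and 220.2 with saline. Jun, Jund and Egr1 were thus at 0 in Gq-CNO library 4 and far above all others in Gq-Saline library 4. In Gq-CNO library 4, 14.6% of tested genes were at 0 and 1 read was worth 14.4 normalised reads, so the 0 of Jund says little. Arc, a synaptic protein of active neurons, had 19.8, 29.1 and 28.8 with CNO and 84.0, 20.6 and 228 with saline, and Npas4, the factor most restricted to neurons, had 1.52, 10.7 and 0 with CNO and 0, 0 and 3.02 with saline. Egr2 had 1232 normalised reads in Gq-Saline library 4 and at most 0.468 in each of the other libraries.

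The promoter windows of 3 of these genes are shown, Fos as the usual readout and Dusp1 and Btg2 as the listed genes with a full cAMP response element, the site of the calcium- and cAMP-responsive factor CREB. They are RefSeq sequences of GRCm38.p6, the build named mm10, from 250 bases before to 50 bases after the gene start, read 5′ to 3′ on the gene's strand, with TGACG and its reverse complement CGTCA, and the full TGACGTCA that both overlap, in capitals.
Fos, chr12:85473640-85473939, plus strand: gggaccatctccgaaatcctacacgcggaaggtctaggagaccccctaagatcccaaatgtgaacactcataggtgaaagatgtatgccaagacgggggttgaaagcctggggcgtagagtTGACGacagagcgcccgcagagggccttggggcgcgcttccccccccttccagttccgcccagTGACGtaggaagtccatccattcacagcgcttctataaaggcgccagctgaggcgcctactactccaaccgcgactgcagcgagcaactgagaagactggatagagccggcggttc
Dusp1, chr17:26508423-26508722, minus strand: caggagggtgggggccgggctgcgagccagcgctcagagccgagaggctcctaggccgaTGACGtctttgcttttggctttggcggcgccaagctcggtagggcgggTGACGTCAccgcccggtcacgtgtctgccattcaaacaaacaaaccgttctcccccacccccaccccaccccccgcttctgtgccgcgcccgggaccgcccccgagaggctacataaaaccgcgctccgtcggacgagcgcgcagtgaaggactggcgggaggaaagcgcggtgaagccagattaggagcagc
Btg2, chr1:134079106-134079405, minus strand: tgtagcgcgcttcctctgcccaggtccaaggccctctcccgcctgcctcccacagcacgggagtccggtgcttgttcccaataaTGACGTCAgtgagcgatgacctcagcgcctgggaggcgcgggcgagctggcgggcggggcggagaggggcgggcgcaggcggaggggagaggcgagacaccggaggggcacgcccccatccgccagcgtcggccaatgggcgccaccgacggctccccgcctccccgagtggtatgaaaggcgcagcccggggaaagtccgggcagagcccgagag
Of the 22 listed genes, 18 had at least 1 window in the table, and 14 of them held TGACG on either strand, which 20.8% of all 32851 windows hold. TGACGTCA was found in 2 of the 18, Dusp1 and Btg2, and in 1.79% of all windows, while the CArG box that serum response factor binds was found in 1 of them, Egr2, and in 1.63% of all windows. A listed gene was counted if any of its windows matched, with 22 windows for the 18 genes. The shares of all windows count single windows, so the units are unlike. Dusp1, a phosphatase that switches off ERK and p38, had 68.5, 38.6 and 72.0 normalised reads in Gq-CNO libraries and 37.9, 35.1 and 828 in Gq-Saline libraries. Btg2, an antiproliferative early gene, had 8.37, 7.58 and 57.6 with CNO and 6.39, 7.48 and 692 with saline. Both therefore showed the pattern of Fos, with a high value in Gq-Saline library 4 and low values elsewhere.

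The machinery of Gq signalling itself showed no common direction. Of 20 tested genes of Gq proteins, phospholipase C and IP3 receptors, 6 lay above 0 and 14 below with all libraries (median log2 difference -0.26), and 12 above and 8 below without those numbered 4 (median 0.11), with 0 called in either. Adra1a, the Gq-coupled receptor for noradrenaline, had 57.8, 46.4 and 0 normalised reads with CNO and 72.1, 90.3 and 148 with saline. Plce1, a phospholipase C driven by Ras, had 300.5, 233 and 259 with CNO and 275, 164 and 24.1 with saline. Among 16 genes of calcium pumps, stores and exchangers the median was -0.12 with all libraries and 0.04 without those numbered 4. Mcu, the channel that takes calcium into mitochondria, had 78.3, 93.6 and 216 with CNO and 70.7, 77.2 and 15.1 with saline, and the calcium-dependent kinase Camk2g had 506, 799.9 and 633 with CNO and 696, 808 and 1299 with saline.

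Feedback genes of the ERK pathway had a median difference near 0. Of 15 tested Sprouty, Spred, Dusp and related genes 6 lay above 0 and 9 below, with a median of -0.02, and 0 were called. Lrig1, which lowers growth factor receptors, was in the group of small p-values, with 157, 186 and 57.6 normalised reads in Gq-CNO libraries and 437, 266 and 786 in Gq-Saline libraries, a log2 difference of -1.91 ± 0.61 (SE; limma unadjusted p = 0.00994, adjusted p = 0.91). Without both libraries numbered 4 its difference was -0.99. Spred2, an inhibitor of Raf, had 715, 622 and 605 with CNO and 2345, 597 and 1272 with saline, so Gq-Saline library 2 lay below every Gq-CNO value. Spry2 had 180.3, 333 and 605 with CNO and 156, 303 and 641 with saline, with groups that overlapped almost wholly.

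Slc22a3, the transporter named in the study's title, had 0 reads in all 6 cortical libraries. Counting error alone allows up to 3 reads in a library at 0, which is 9.23 RPM in Gq-CNO library 4, the shallowest, and 0.183 RPM in Gq-CNO library 2, the deepest. Slc22a2, a related organic cation transporter, had 0 normalised reads in every Gq-CNO library and 0.456, 0.935 and 0 in the Gq-Saline libraries, and Slc29a4, a monoamine transporter of the nucleoside family, had 39.2 in Gq-Saline library 1 and 0 in the others.

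Genes that break down monoamines were read in every library, and none was called. The monoamine oxidase gene Maoa had 335, 285 and 633 normalised reads in Gq-CNO libraries and 354, 260.0 and 369.6 in Gq-Saline libraries, a log2 difference of 0.28 ± 0.44 (SE; limma adjusted p = 0.926). Maob, its sister, had 519, 474 and 533 with CNO and 527, 492 and 867 with saline, a difference of -0.26 ± 0.35 (adjusted p = 0.914). In libraries 1 and 2 the groups of both genes overlapped. Tgm2, the transglutaminase that can attach serotonin to histones, had 64.7, 0.237 and 0 with CNO and 16.0, 7.95 and 1.51 with saline, too few reads in most libraries to be tested.

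Of 31 tested transcription factors of astrocytes, Gq-Saline library 4 was the lowest library for 11 and the highest for 10, near its shares over all tested genes (38.6% and 30.8%). Of the 31, 17 lay above 0 and 14 below (median log2 difference 0.08), 0 were called, and 5 were higher in every Gq-CNO library than in any Gq-Saline library, against 4.46% of all tested genes. Sox9, the factor that specifies astrocytes, had 1770.1, 1859.9 and 1871 normalised reads with CNO and 1429, 1541 and 195 with saline, a log2 difference of 1.28 ± 0.66 (SE; limma adjusted p = 0.91), and 0.29 ± 0.20 without both libraries numbered 4. Lhx2, a forebrain homeobox factor, had 1509, 1925 and 1842 with CNO and 1223, 1354 and 364 with saline, 1.05 with and 0.40 without them. Nfix, a nuclear factor I gene that drives glial differentiation, had 1627, 1484 and 1425 with CNO and 1349, 1015 and 474 with saline, and its relative Nfib had 2379, 1859 and 2692 with CNO and 1778, 1809 and 1386 with saline. Emx2, a patterning factor of the cortex, had 634, 529.7 and 633 with CNO and 358, 481 and 382 with saline, 0.56 ± 0.34 with and 0.48 ± 0.28 without them.

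Gfap, the intermediate filament that marks reactive astrocytes, had 965, 854 and 1065 normalised reads in Gq-CNO libraries, against 697, 670.2 and 395 in Gq-Saline libraries. Its log2 difference was 0.75 ± 0.34 (SE; limma unadjusted p = 0.0492, adjusted p = 0.91), and 0.41 ± 0.24 without both libraries numbered 4 (unadjusted p = 0.0988). The 10 tested filament and pan-reactive genes had a median of 0.31 with all libraries and 0.10 without those numbered 4, with 6 above and 4 below 0 in both.

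Lists of glutamate, potassium and energy handling had medians close to 0. The glutamate transporter Slc1a2 had 416962, 325438 and 497647 normalised reads with CNO and 306887, 363822 and 275826 with saline, a log2 difference of 0.38 ± 0.23 (SE; limma adjusted p = 0.91). Glul had 32077, 27946 and 35538 with CNO and 26617, 29550 and 20548 with saline. In the glutamine carrier Slc38a2 Gq-Saline library 4 alone stood out, with 20.5, 21.8 and 14.4 with CNO and 35.1, 29.5 and 1015 with saline. List medians were 0.15 for glutamate uptake (13 tested), 0.14 for GABA handling (13), 0.03 for potassium, water and gap junction genes (19), 0.12 for glycolysis (25), 0.12 for cholesterol synthesis (25), -0.07 for ribosomal proteins (37), -0.07 for oxidative phosphorylation (38) and 0.02 for the circadian clock (19). None of their members was called. Without both libraries numbered 4, glycolysis (-0.05), potassium, water and gap junction genes (-0.01) and ribosomal proteins (0.01) took the opposite sign. The other medians of these lists kept theirs. Hk2, a hexokinase, had 8.37, 1.89 and 0 with CNO and 34.7, 29.5 and 30.2 with saline, a log2 difference of -3.43 ± 1.55 (limma adjusted p = 0.91), but it passed the filter through the 3 Gq-Saline libraries alone, which set its lack of overlap.

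Interferon and stress lists held no called gene. Of 11 tested interferon and antigen presentation genes 4 lay above 0 and 7 below (median -0.19). Stat2, a subunit of the factor that type I interferon activates, had 121, 75.80 and 43.2 normalised reads with CNO and 25.1, 14.0 and 1.51 with saline, without overlap, a log2 difference of 2.91 ± 1.32 (SE; limma unadjusted p = 0.0521, adjusted p = 0.91), and 2.29 without both libraries numbered 4. Heat shock genes had a median of -0.18 (14 tested), and their Dnajb1 had 60.1, 47.8 and 0 with CNO and 109, 88.9 and 296 with saline. The 17 tested glucocorticoid-responsive genes had a median of 0.09, and of -0.15 without both libraries numbered 4.

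Lists of other cell types did not share 1 pattern. The 7 tested oligodendrocyte markers were all below 0, with a median of -0.78, and without both libraries numbered 4 there were 6 below and 1 above, with a median of -0.55. Mbp, the myelin basic protein gene, had 2137, 2279 and 3080.2 normalised reads with CNO and 3756, 2505 and 8094 with saline, -0.78 ± 0.39 with all libraries (SE; limma adjusted p = 0.91) and -0.48 ± 0.20 without those numbered 4. Cnp, another myelin gene, had 361, 502 and 547 with CNO and 712, 544 and 1099.6 with saline, and Ermn had 60.9, 20.1 and 129.5 with CNO and 124, 77.2 and 669.7 with saline. The summed level of these markers in Gq-Saline library 1 (1532 RPM) was also above every Gq-CNO library. In Gq-Saline library 2 (966 RPM) it was below Gq-CNO libraries 2 and 4 (1014 and 1067 RPM).

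The median of 13 microglia markers was -0.70 with all libraries (4 above, 9 below 0) and 0.45 without those numbered 4 (8 above, 5 below). P2ry13, a purine receptor of microglia, had 1.52, 0 and 0 normalised reads with CNO and 10.0, 10.8 and 246 with saline, and it too passed the filter through the Gq-Saline libraries alone. Siglech, a lectin of microglia, had 0, 6.16 and 129.5 with CNO and 21.0, 55.2 and 587 with saline. The direction of the list thus depended on the libraries numbered 4. That of P2ry13 was set by the filter, and for Siglech Gq-CNO library 4 lay above Gq-Saline libraries 1 and 2. The 6 tested nuclear long noncoding RNAs had a median of -1.71 with all libraries (0 above, 6 below) and 0.21 without those numbered 4 (3 above, 3 below, Malat1 among those below).

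**Figure D5:**
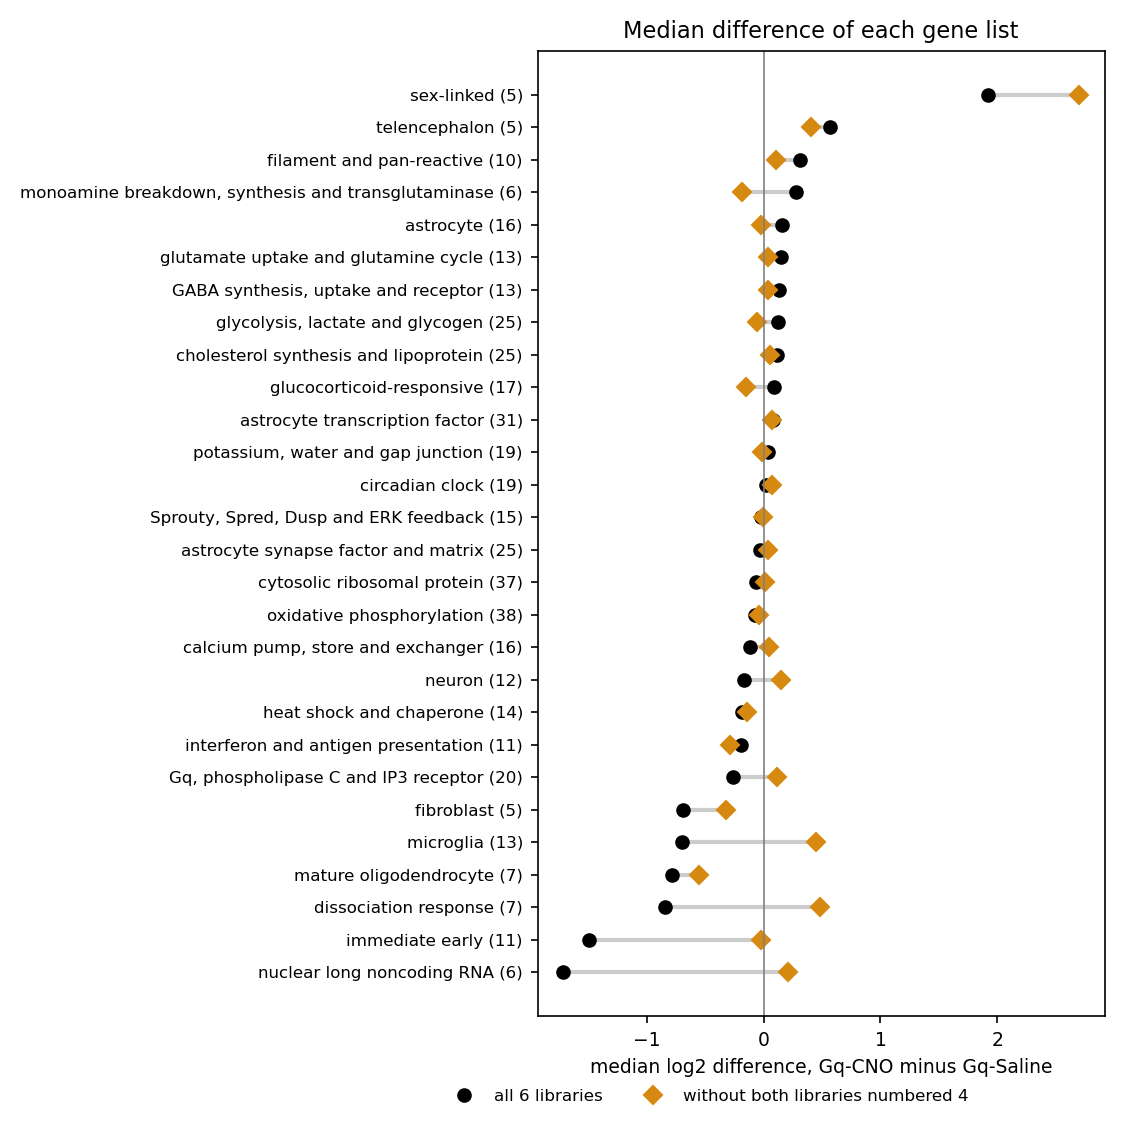
Each row is a gene list with at least 5 tested genes, their number in brackets, and the points are the median log2 difference (Gq-CNO minus Gq-Saline) of those genes, black with all 6 libraries and orange without both libraries numbered 4. The longest lines join the medians of nuclear long noncoding RNAs (-1.71 and 0.21), immediate early genes (-1.50 and -0.02), genes of the dissociation response (-0.84 and 0.49) and microglia (-0.70 and 0.45).

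Sex-linked genes differed between libraries of 1 group. Ddx3y, on the Y chromosome, had 365, 520.4 and 273 normalised reads in Gq-CNO libraries and 0.456, 546 and 275 in Gq-Saline libraries, and Kdm5d had 135, 95.5 and 173 with CNO and 0, 116 and 124 with saline. Xist, which silences the inactive X chromosome, had 0, 0 and 14.4 with CNO and 15.5, 0 and 116 with saline. Gq-Saline library 1 thus lacked Y-linked RNA, and Gq-Saline library 4 held both kinds. Every Gq-CNO library held Y-linked RNA, so the groups were not alike in sex-linked RNA. Whether this bears on the comparison was not tested.

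The genes that marked each library numbered 4 were unlike. In Gq-Saline library 4, Galnt6 (964 normalised reads), Gpr183 (842), an oxysterol receptor of immune cells, and Foxq1 (587), a forkhead factor, had no read in any other cortical library, and Egr2 stood at 1232. In Gq-CNO library 4, Sec24c, which coats vesicles that leave the endoplasmic reticulum, had 5513 normalised reads, against 219 and 203 in Gq-CNO libraries 1 and 2 and 177, 165 and 45.3 in the Gq-Saline libraries. Fitm2 (288) and the neuronal sodium channel gene Scn1a (288) were at most 6.63 and 20.1 in the other libraries, each resting on 20 reads in that library.

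The Gq-CNO effect in cortex was set against that in the other regions by a test of the difference itself. Over 18 astrocyte libraries, 0 of 12921 genes differed in effect between cortex and olfactory bulb (0%), and 0 between cortex and hippocampus (0%), by limma at an adjusted p of 0.05. At an unadjusted p under 0.05 there were 326 (2.52%) and 715 (5.53%). edgeR also called 0 in both, with 579 (4.48%) and 904 (7.0%) at an unadjusted p under 0.05, while DESeq2 called 13 (0.101%) and 56 (0.433%). The effect on Lrig1 was 1.89 lower on the log2 scale in cortex than in olfactory bulb (unadjusted p = 0.00945, adjusted p = 0.991 by limma) and 1.92 lower than in hippocampus (unadjusted p = 0.00858, adjusted p = 0.794). The effect on Gfap was 0.74 higher in cortex than in olfactory bulb and 0.83 higher than in hippocampus, with the same adjusted p-values. Both genes were picked for a small p in cortex, and each of these differences contains the cortical one. A small unadjusted p here thus follows in part from that choice. The cortical differences of both genes were also smaller without the libraries numbered 4.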

How the data were processed

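RNA of sorted cortical astrocytes was sequenced in paired ends, from libraries made with the Trio RNA-seq kit, per the labels' protocols. The deposited signal values are gene read counts that the authors divided by 1 size factor per library. Per the submitters' processing notes the tools were FastQC 0.11.7, MultiQC 1.11, STAR 2.5.0a and DESeq2 1.30.1, with build mm10. The whole reads were recovered for all values (100% within 0.05 of a whole number), and floors cover counting error only. The ribosomal entry Rn45s was kept.

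limma 3.58.1 in R 4.3.3, with a mean-variance trend, was fitted to log2(value + 1) of the 24421 gene entries after a filter of at least 10 in at least 3 libraries. A fold change on this scale is understated for low genes. The recovered reads were tested with edgeR 4.0.16 (quasi-likelihood) and with DESeq2 1.42.0. Differences between regions used 18 libraries with joint size factors. The columns numbered 4 carry no replicate number of the labels and were tied to a group only. Gene positions are from GENCODE vM21. The statistics were tested on simulated data.

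Members and lists were chosen with earlier results of these data known. Genes named are a fixed set of 14, the 10 higher and 10 lower with the smallest unadjusted p whose higher group mean reached the median, 6 and 6 likewise without the libraries numbered 4, those DESeq2 called, up to 4 of each list by p, and those most in excess in each library numbered 4. Markers and other list genes given by level only were picked as well known ones.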

Additional observations from a re-analysis of the deposited data

How the results depend on the processing

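In limma no alternative called a gene in the cortical comparison: other pseudocounts, filters, normalizations, array weights, 1 fit of all 6 Gq astrocyte groups, and each library left out in turn all gave 0. DESeq2 gave 16 genes with no filter on low values and 3 without both libraries numbered 4, both chosen after the data were seen. For the difference of the effect between cortex and olfactory bulb, DESeq2 gave 13 genes and limma without a filter 1, and between cortex and hippocampus 56 and 1. The cause was not tested. Libraries of the same number did not deviate together (correlations of 0.0377, 0.0433 and 0.0604), and with the replicate number as a block the count stayed at 0, with 138 genes at an unadjusted p under 0.05.

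Of 67 genes named with a log2 difference, 59 kept its sign under every alternative run, and 8 did not. Many of the 67 were chosen by a small unadjusted p in these data, which favours a kept sign. Where the groups did not overlap, leaving libraries out could not turn it. The share over all tested genes was not computed. Without both libraries numbered 4, Klhl23 was 1.90 by limma, 1.93 by edgeR and 1.93 by DESeq2, Cml1 -1.67, -1.62 and -1.63, Fos 1.10, 1.32 and 1.32, and Egr1 0.065, 1.33 and 1.32, while Gad1 was 0.11 by edgeR and 0.077 by DESeq2. With array weights Klhl23 was 1.44, Cml1 -1.26, Fos 1.33 and Egr1 0.076, and with quantile normalization Fos was 0.28. With all libraries Cml1 was -0.068 by edgeR with TMM, -0.032 with RLE size factors and -0.0040 by DESeq2 with no filter. Spry2 was -0.0017 by edgeR with RLE, -0.0010 by DESeq2 and -0.0028 by DESeq2 with no filter, and Gad2 was -0.40 at a pseudocount of 0.1.

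Leaving out 1 library at a time gave -1.12 to 0.83 for Klhl23, -0.94 to 1.82 for Cml1, -0.65 to 2.55 for Gad2, -0.069 to 0.51 for Maoa, -1.09 to 1.70 for Fos and -0.41 to 0.60 for Spry2. Of 32 list medians, 16 had the opposite sign without both libraries numbered 4. As a median instead of a sum, markers in Gq-Saline library 4 were 8.62 times the next library for microglia and 3.78 times for oligodendrocytes, but 0.856 times for mural and 0.593 times for endothelial cells. For fibroblasts the ratio was 2.10, against 0.719 by the sum, and for oligodendrocyte precursors 20.8, against 2.77. For astrocytes the ratio was 0.974, against 0.621 by the sum. The depth of Gq-CNO library 4, 325129 reads, limits what low genes can show.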
